A study of Rattus norvegicus with 4 samples.

Results

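Crym encodes mu-crystallin, a cytosolic protein that binds thyroid hormone and also acts as a ketimine reductase. It was described here together with 7 genes of the thyroid hormone response, Klf9, Hr, Thra, Thrb, Dio3, Nrgn and Dbp, in rat neural stem/progenitor cells (NSPCs) grown on 2 culture platforms in 2 media. Crym was selected on its measured counts, for its rise with the switch of medium, so that its medium ratios are given as a description and are not tested. The other 7 genes were taken for their known place in the pathway, with earlier results of these data known. All 8 symbols, of 16881 in the count tables, were found, each as 1 entry per library, and all 8 had 10 or more counts in at least 1 library. Hr and Thrb met that minimum with a count of 0 in 1 or more libraries.

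The 4 groups were wild-type NSPCs on bare PUCL or on PUCL@CNT1, sampled at 2 stages. The maintenance stage was 24 h in knockout DMEM/F12 supplemented to keep stemness, and the differentiation stage was a further 1.5 d in a neuronal medium based on B-27 Plus. Each group was 1 library, so platform and medium differences between single libraries have no replicate check, and medium and time in culture changed together. The labels give no strain, age, embryonic stage or number of animals or cultures, and they do not say whether either medium held thyroid hormone. Each library was made from total RNA by Lexogen QuantSeq, an assay that counts reads near the 3' end of each polyadenylated transcript.

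Thyroid hormone enters cells through membrane transporters and is inactivated in neural cells by the deiodinase that Dio3 encodes. The hormone binds nuclear receptors encoded by Thra and Thrb, which pair with retinoid X receptors on DNA. Without hormone the receptors hold corepressors at their target genes, and with hormone they exchange these for coactivators. In the brain the hormone is known for its part in neuronal maturation and in myelination, and Klf9, Hr, Nrgn and Dbp are among the genes known to respond to it there. Klf9 also responds to glucocorticoids, and Dbp to the circadian clock.

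Values below are in the order PUCL maintenance, PUCL@CNT1 maintenance, PUCL differentiation, PUCL@CNT1 differentiation. The libraries held between 6035848 and 6855984 counts, and 10516 genes were tested. The label of the cells was checked against marker genes. Of 9 progenitor markers 8 had counts (Msi1 stood at 0). Their summed level ran from 6595 to 10653 CPM (the usual depth-scaled unit, here with TMM scaling). Vim, at 4314, 4795, 4814 and 7635 CPM, carried most of this sum. Hes5 had 2, 0, 0 and 0 counts, and Pax6 had 53, 21, 246 and 19. The 4 microglia markers were at 0 in all libraries. Of 10 neuron markers 9 had counts, and they summed to 185, 142, 100 and 66.5 CPM. Of 5 mural and fibroblast markers 3 had counts. These summed to 1064, 747, 500 and 356 CPM, nearly all of it from the smooth muscle actin gene Acta2.

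Crym was far higher in differentiation medium on both platforms. Its counts were 377, 397, 4678 and 2167. Both differentiation libraries therefore lay far above both maintenance libraries. As scaled levels with exact 95% Poisson intervals, which cover counting error only, these were 57.2 CPM (51.5 to 63.2), 63.6 CPM (57.5 to 70.1), 724 CPM (703 to 745) and 326 CPM (312 to 340). In order of level PUCL in differentiation medium came first and PUCL@CNT1 in that medium second, and the intervals of the maintenance libraries overlapped. The ratio between media was 12.6-fold on PUCL (exact 95% binomial interval 11.4 to 14.1) and 5.12-fold on PUCL@CNT1 (4.61 to 5.72). Among the 6204 genes that averaged at least 100 counts, Crym ranked 14th by this ratio on PUCL and 78th on PUCL@CNT1. These ranks describe the values for which Crym was picked.

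**Figure D1:**
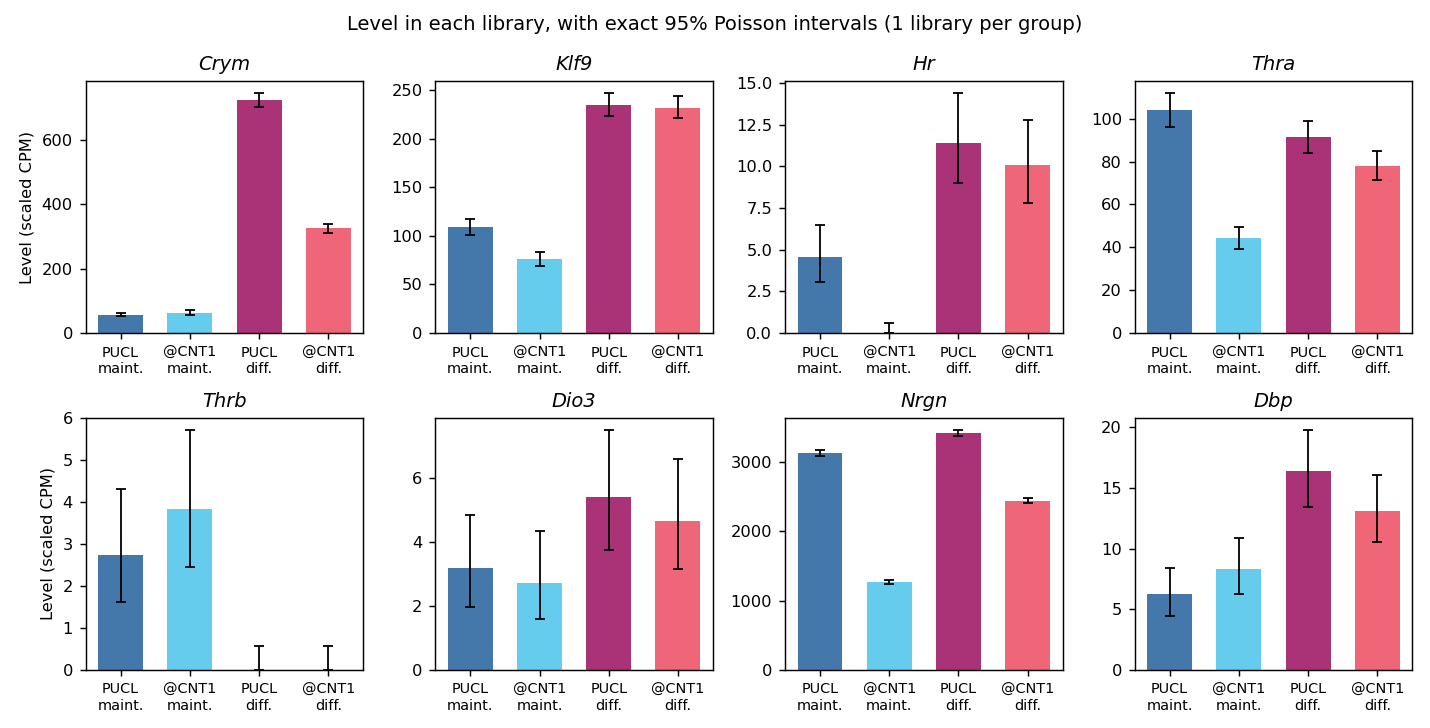
Level of each of the 8 genes in the 4 libraries, in CPM after scaling, with exact 95% Poisson intervals as error bars and 1 library per group (@CNT1 stands for PUCL@CNT1). Crym stood at 724 CPM on PUCL and 326 CPM on PUCL@CNT1 in differentiation medium, Klf9 was near 235 CPM in both differentiation libraries, and Nrgn and Thra were lowest on PUCL@CNT1 in maintenance medium.

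The platforms differed in Crym in differentiation medium but not beyond counting error in maintenance medium. In maintenance medium the PUCL@CNT1 library was 1.11-fold the PUCL library (95% interval 0.963 to 1.28), and in differentiation medium it was 0.451-fold (0.428 to 0.474). The platform log2 ratio thus moved from 0.15 to -1.15, a change of -1.30 (95% counting interval -1.52 to -1.09). The rule of size used for single libraries asked for 2-fold or more, with the interval's near end past 1.5-fold. A fall of that size in the platform ratio was met by 14.1% of all genes tested. No test of this change was possible with 1 library per group. It is also the difference between the medium log2 ratios on the 2 platforms. It thus rests on the counts for which Crym was picked and is a description. A fit over all 4 libraries (edgeR, platform and medium as additive terms) gave a platform log2 difference for Crym of -0.52 (SE 0.243, adjusted p 0.652). This fit gives 1 platform difference for both media. Of 8 other settings that kept all 4 libraries, limma-voom alone passed the threshold, at -0.92 (adjusted p 0.00909). The platform term also rests on the counts for which Crym was picked, so it is a description too. The sum of the astrocyte markers, of which 5 of 6 had counts, was also highest on PUCL in differentiation medium. It stood at 468, 466, 920 and 459 CPM. S100b, at 104, 85.5, 609 and 114 CPM, and Gja1, at 362, 377, 304 and 344 CPM, carried nearly all of this sum. The high value came from S100b, whereas Gja1 was lowest in that library. S100b was 5.88-fold higher in differentiation medium on PUCL and 1.34-fold on PUCL@CNT1. The defining markers were low, with 0, 19, 31 and 0 counts for Gfap, 0, 0, 12 and 0 for Aqp4, 12, 0, 0 and 0 for Aldh1l1 and none for Slc1a2. The part of these cells in the Crym level was not tested.

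Among the response genes, Klf9 rose with differentiation medium. Klf9 encodes a Kruppel-like zinc finger factor that binds GC-rich promoter elements. Its counts were 716, 476, 1518 and 1542. Both differentiation libraries were above both maintenance libraries, and they were close to each other at 235 and 232 CPM. The medium ratio was 2.16-fold on PUCL (95% interval 1.98 to 2.37) and 3.04-fold on PUCL@CNT1 (2.74 to 3.38). In edgeR the fitted log2 difference was 1.36 (SE 0.274, adjusted p 0.000644), where 1.8% of all genes tested passed as higher and 1.02% as lower (total counts in place of TMM gave 139 higher and 121 lower, against 189 and 107). The call held under 9 of 12 other settings. It was lost among genes that averaged at least 300 counts (adjusted p 0.0512). With the platform term left out, it was also lost without the PUCL maintenance library (0.119) and without the PUCL@CNT1 maintenance library (0.53). The platforms differed in the maintenance medium, at 0.702-fold (0.624 to 0.789) for PUCL@CNT1 against PUCL, and in differentiation medium the ratio was 0.988-fold (0.92 to 1.06).

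Hr, Dio3 and Dbp had low counts, and none of them passed the edgeR threshold for medium. Hr, a nuclear corepressor known as a direct target of the hormone in brain, had 30, 0, 74 and 67 counts. On PUCL its ratio was 2.49-fold (95% interval 1.63 to 3.98). On PUCL@CNT1, with 0 counts set at a floor of 3 counts per library, it was at least 21-fold higher, and the exact 95% interval, which also takes in the counting error of the 67 counts, starts at 16.6-fold. Both leave out scatter between libraries. The edgeR adjusted p was 0.643. Dbp, a circadian transcription factor of the PAR bZIP family, had 41, 52, 106 and 87 counts. Its ratios were 2.62-fold on PUCL (1.82 to 3.88) and 1.57-fold on PUCL@CNT1 (1.1 to 2.26), with an edgeR adjusted p of 0.908. Dio3 had 21, 17, 35 and 31 counts, and its ratios of 1.68-fold (0.962 to 3.07) and 1.69-fold (0.919 to 3.3) had intervals that included no change (adjusted p 0.983). In all 3 genes both differentiation libraries were nevertheless above both maintenance libraries. With Klf9 this held for 4 of the 7 genes other than Crym, and it held for 19.4% of all genes tested. By the rule of size, Klf9, Hr and Dbp were higher on PUCL and Klf9 and Hr on PUCL@CNT1, directions met by 16% and 16.5% of all genes. The change of the platform ratio between media met it as a rise in Hr, as in 15.4% of genes.

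**Figure D2:**
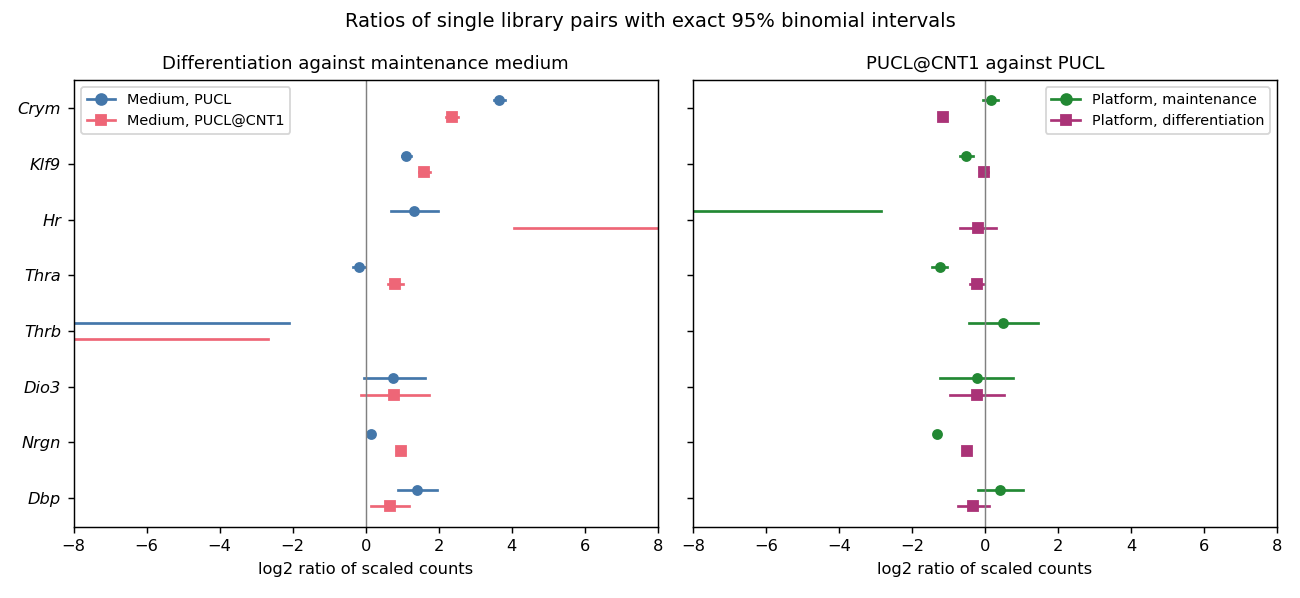
Log2 ratios of single pairs of libraries for the 8 genes, between media on each platform (left) and between platforms in each medium (right), with exact 95% binomial intervals as lines. Lines without a point have a count of 0 on one side and run to the edge of the axis. Klf9 lay above 0 on both platforms (1.11 and 1.60), whereas Thra lay at -0.18 on PUCL and 0.81 on PUCL@CNT1.

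The receptor genes had other patterns than Crym and Klf9. Thra, which encodes the main receptor of the brain, had 683, 276, 591 and 517 counts. The PUCL@CNT1 maintenance library was low, and both differentiation libraries lay between the maintenance libraries. The medium ratio was 0.883-fold on PUCL (95% interval 0.789 to 0.987) and 1.76-fold on PUCL@CNT1 (1.52 to 2.04). The fitted medium difference was 0.31 (SE 0.353, edgeR adjusted p 0.908) and the fitted platform difference -0.73 (SE 0.354, adjusted p 0.696). Without the PUCL@CNT1 maintenance library and the platform term, the fitted medium difference was -0.29. In maintenance medium PUCL@CNT1 stood at 0.427-fold of PUCL (0.37 to 0.491), and in differentiation medium at 0.851-fold (0.755 to 0.959). By the rule of size Hr, Thra and Nrgn were lower on PUCL@CNT1 in maintenance medium, as were 13.9% of all genes, and none of the 8 was higher (12.1% of all). In differentiation medium Crym was lower (15.6% of all) and none was higher (15.2% of all).

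Nr1d1, a repressor of the circadian clock, is encoded opposite Thra, and their RefSeq gene spans share 1061 bases. Whether reads were counted by strand is not given in the sources used here, so that reads from the shared stretch cannot be told apart. Nr1d1 had 128, 94, 191 and 45 counts, with log2 ratios between media of 0.60 on PUCL and -1.14 with CNT1 (edgeR adjusted p 0.976). It was lowest on PUCL@CNT1 in differentiation medium, whereas Thra was lowest on PUCL@CNT1 in maintenance medium.

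Thrb, the other receptor gene, had 18, 24, 0 and 0 counts. With the floor of 3 counts per library it was at least 5.88-fold lower in differentiation medium on PUCL, and for PUCL@CNT1 the bound was at least 8.51-fold lower. The exact 95% intervals, which also take in the counting error of the maintenance counts, end at 0.232-fold and 0.156-fold. All of these leave out scatter between libraries, and the directions were met by 15.2% and 14.5% of all genes by the rule of size. Both differentiation libraries lay below both maintenance libraries in 19.3% of all genes. The edgeR adjusted p was 0.816. At these depths a count of 0 does not show that the gene was silent.

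Nrgn differed between platforms, with the lowest value on PUCL@CNT1 in maintenance medium. Nrgn encodes neurogranin, a postsynaptic protein of neurons that binds calmodulin. Its counts were 20624, 7904, 22134 and 16258. Each PUCL@CNT1 library was below both PUCL libraries. The share of all genes with this order was not counted. The ratio of PUCL@CNT1 to PUCL was 0.405-fold in maintenance medium (95% interval 0.394 to 0.415) and 0.714-fold in differentiation medium (0.7 to 0.729). The fitted platform log2 difference was -0.90 (SE 0.144, edgeR adjusted p 5.02e-05), where 0.247% of all genes tested passed as lower and 0.209% as higher. It kept its call under 7 of 12 other settings. Without the PUCL@CNT1 maintenance library and the medium term it was -0.42 (adjusted p 0.996), without the PUCL maintenance library and that term -0.88 (0.794), and without the PUCL differentiation library and that term -0.75. Among genes that averaged at least 300 counts the adjusted p was 0.337.

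The medium difference of Nrgn was small on PUCL and its sign turned without 1 library. Its ratio was 1.09-fold on PUCL (95% interval 1.07 to 1.12) and 1.93-fold on PUCL@CNT1 (1.88 to 1.99). The fitted log2 difference was 0.54 (SE 0.144, edgeR adjusted p 0.0173), but the call held under 3 of 12 other settings. Without the PUCL@CNT1 maintenance library and the platform term it was -0.09 (adjusted p 0.998). The share of all counts held by Nrgn was 0.317%, 0.131%, 0.336% and 0.237%, which placed it 14th, 77th, 14th and 29th among all symbols. The summed neuron markers, given above, were lower in both differentiation libraries than in either maintenance library. Single markers went different ways. Snap25 (191, 28, 50 and 0 counts) and Syn1 (317, 162, 98 and 134) were lower on PUCL@CNT1 than on PUCL in maintenance medium, as Nrgn was. Map2 (552, 614, 407 and 238) and Tubb3 (28, 20, 25 and 62) had other orders. Camk2a, a kinase of excitatory neurons, had 0, 1, 37 and 0 counts, Rbfox3 had 29, 1, 0 and 0, and Slc17a7 had none. The part of neurons in the Nrgn level was not tested.

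**Figure D3:**
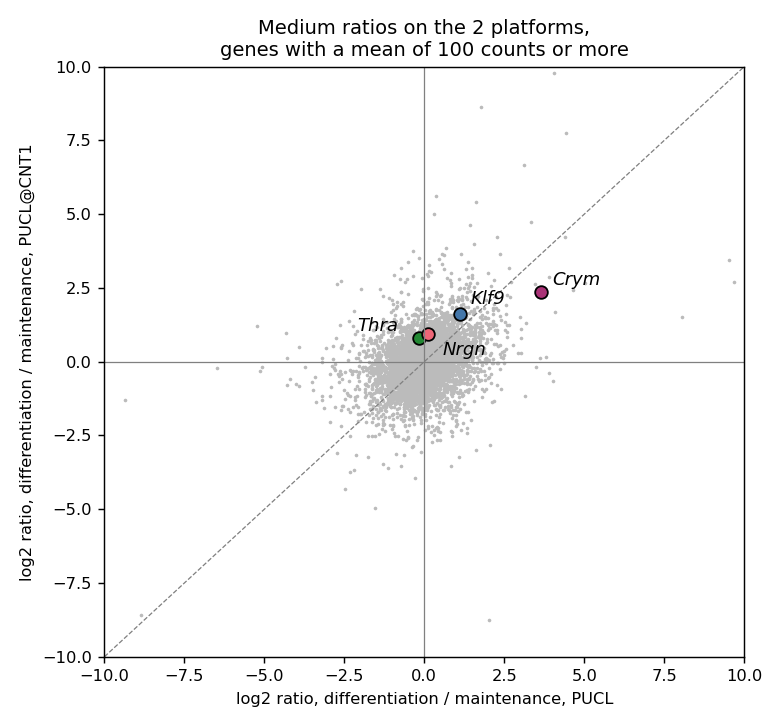
Log2 ratio of differentiation to maintenance medium on PUCL (x axis) and PUCL@CNT1 (y axis) for the 6204 genes that averaged at least 100 counts, with equality as a dashed line. Crym lay at 3.66 and 2.36, below the line and outside the bulk of genes, and Klf9 at 1.11 and 1.60, with Nrgn (0.13 and 0.95) and Thra (-0.18 and 0.81) in the bulk.

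The sequence before the start sites was available for 6 of the 8 genes in RefSeq's promoter table (GRCr8 build), with 2 windows for Thra. Crym and Hr had no entry. The 250 bases before each start were searched on both strands for letters of known elements. These were the core site of the hormone's receptors (AGGTCA), its direct repeat spaced by 4 bases (DR4), the D-box bound by Dbp (TTATGTAA or TTACGTAA) and the E-box of clock factors (CACGTG). None of the 7 windows held any of them. Over all 33469 windows 14.1% held the core site, 0.00299% the repeat, 0.828% and 0.108% the D-box forms and 5.59% the E-box. The GC box (GGGCGG), an element of the kind Klf9 binds, was added after the sequences were seen. It was in 4 of the 7 windows and in 30.5% of all. G and C made up 44.8% to 79.6% of the members' windows (median 63.6%), and the median over all windows was 51.2%. Shown are the windows of Klf9, which rose with medium, of Nrgn, which was lower on PUCL@CNT1, and of the upstream start of Thra, 5' to 3' with GC boxes in capitals. They lie at chr1:230126396-230126645 (plus strand), chr8:45452418-45452667 (minus strand) and chr10:84197891-84198140 (plus strand).
Klf9: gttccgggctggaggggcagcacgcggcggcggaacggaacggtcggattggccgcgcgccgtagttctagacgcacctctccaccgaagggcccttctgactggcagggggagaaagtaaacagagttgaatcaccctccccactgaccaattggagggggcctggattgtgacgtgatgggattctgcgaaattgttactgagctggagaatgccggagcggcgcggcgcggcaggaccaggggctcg
Nrgn: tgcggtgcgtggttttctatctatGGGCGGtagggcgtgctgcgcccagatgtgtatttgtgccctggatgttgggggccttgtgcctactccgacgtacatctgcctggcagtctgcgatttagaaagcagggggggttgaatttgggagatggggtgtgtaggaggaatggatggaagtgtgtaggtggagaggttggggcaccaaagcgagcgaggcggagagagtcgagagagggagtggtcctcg
Thra: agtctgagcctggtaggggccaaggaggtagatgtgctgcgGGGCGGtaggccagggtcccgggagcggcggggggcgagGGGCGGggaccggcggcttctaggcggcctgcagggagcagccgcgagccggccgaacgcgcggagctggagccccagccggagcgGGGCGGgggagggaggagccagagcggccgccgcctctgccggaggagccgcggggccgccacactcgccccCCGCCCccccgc
The Klf9 window held no GC box, the Nrgn window 1 and this Thra window 4.

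Other genes of the pathway were read by role, in lists that leave Crym out. Of 5 tested transporter genes 0 passed the edgeR threshold for medium (1 had an unadjusted p under 0.05). Of all 10516 genes tested, 1273 had an unadjusted p under 0.05 for medium. Slc3a2, the heavy chain shared by amino acid and hormone transporters, stood at log2 ratios between media of 0.42 and 0.54 (PUCL, then PUCL@CNT1, here and below), and its partner Slc7a5 at 0.99 and 0.28. The other tested transporters had low counts. Slc16a10 had 80, 0, 0 and 0, Slc7a8 had 70, 9, 85 and 57, and Slco1c1 had 0, 0, 2 and 12. The deiodinases Dio1 and Dio2 had no counts. Of 3 tested genes of deiodination and binding 0 passed (0 unadjusted). Of 4 receptors and retinoid X receptors 0 passed (0 unadjusted), and Rxrb, the receptor partner with counts in every library, had 0.30 and 0.44.

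Corepressors and coactivators were read next. Of the 6 corepressors described here 0 passed the edgeR threshold for medium (0 unadjusted), and of 6 coactivators 0 passed (0 unadjusted). The corepressor Ncor1 had log2 ratios of -0.46 and -0.18.

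Of 21 tested and described genes known to respond to thyroid hormone in brain or other tissues, 4 rose with differentiation medium in edgeR and 0 fell, against 1.8% and 1.02% of all genes tested. They were Klf9, Nrgn, the myelin gene Mbp and Cpt1a, the carnitine transferase that admits fatty acids to mitochondria. At an unadjusted p under 0.05 in edgeR there were 7 of the 21 genes. The list's median log2 ratio was 0.83 on PUCL and 0.10 on PUCL@CNT1, beside 0.03 and -0.02 over all genes tested. The list was written with earlier results of these data known, so its count is a description. It includes members, Klf9 and Nrgn among them. Over all lists without the members, 3 of 80 tested genes rose with medium in edgeR and 1 fell. Mbp had 488, 779, 1194 and 1383 counts (fitted log2 1.03, SE 0.282, edgeR adjusted p 0.0227) and kept its call under 5 of 12 other settings. Cpt1a, at 603, 610, 1357 and 1170 counts, had a fitted log2 of 1.02 (SE 0.283, adjusted p 0.0237) and kept it under 6 of 12. The calls of Mbp and Cpt1a were lost in DESeq2 (adjusted p 0.101 and 0.0956) and without either maintenance library when the platform term was left out (0.863 and 0.289 for Mbp, 0.608 and 0.599 for Cpt1a, without the PUCL and the PUCL@CNT1 library in turn). Cpt1a lost its call without the PUCL differentiation library as well (0.197), and Mbp without either differentiation library (0.0858 without PUCL and 0.196 without PUCL@CNT1). All 8 markers of the oligodendrocyte lineage, among them Mbp, had counts, and their summed level was 923, 828, 1503 and 1490 CPM. Olig1 (284, 267, 641 and 627 CPM), Mbp and Cnp (55.7, 83.9, 149 and 168 CPM) carried most of its rise. Other markers had other orders, as Olig2 (452, 316, 474 and 441 CPM), Mog (17, 8, 9.13 and 8.57), Cspg4 (15.9, 4.16, 3.4 and 14.9) and Sox10 (8.34, 15.5, 20.9 and 12.3). The part of cells of this lineage was not tested. In bulk RNA more cells of a type and more RNA per cell, or fewer and less, cannot be told apart. Itpr1, the calcium release channel, had log2 ratios of -2.06 and -1.55 (adjusted p 0.193).

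**Figure D4:**
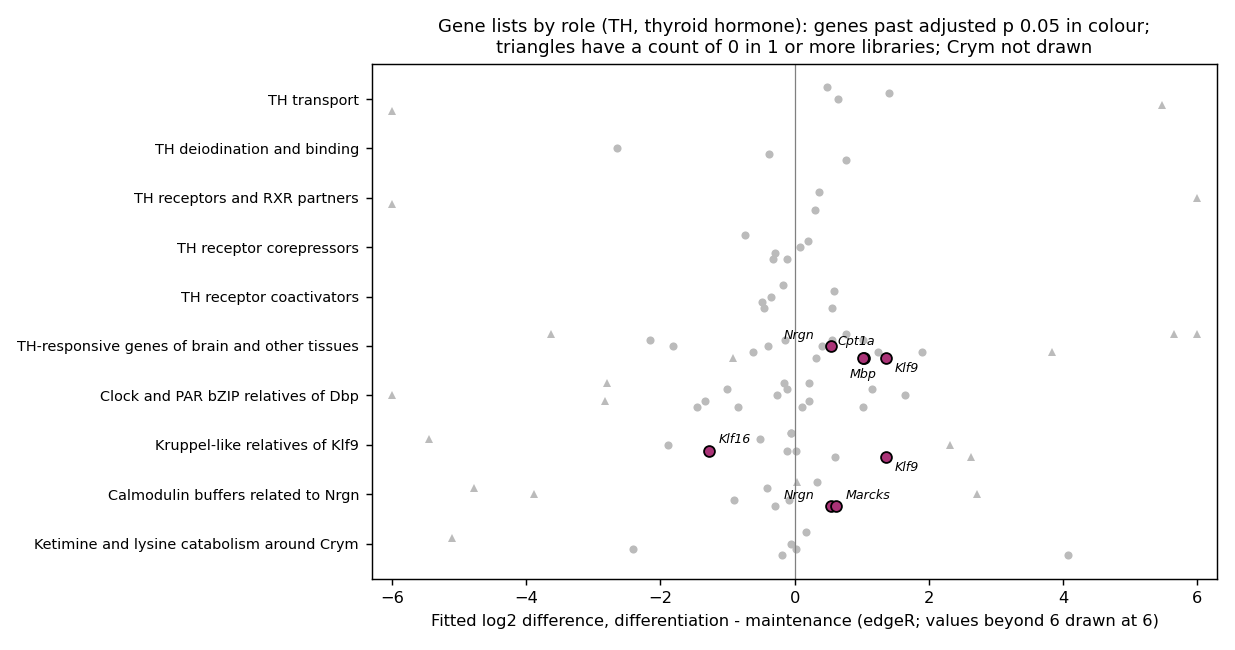
Fitted log2 difference between differentiation and maintenance medium (x axis) for genes of 10 lists by role (y axis), Crym not drawn. Genes past an edgeR adjusted p of 0.05 are coloured and named, and triangles mark genes with a count of 0 in 1 or more libraries, whose fitted values depend on the prior count. Klf9, Nrgn, Mbp and Cpt1a are the coloured points among genes known to respond to thyroid hormone.

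Relatives of the members by family were examined next. Among 16 clock and PAR bZIP genes, which include Dbp, 0 passed the edgeR threshold for medium (1 unadjusted), and their median log2 ratio was -0.11 on PUCL and -0.35 on PUCL@CNT1. Cry1, a clock repressor, had -1.45 and -1.46 (adjusted p 0.296). Nr1d2, the relative of Nr1d1, had 1.87 and 0.45 (adjusted p 0.653). Of 12 Kruppel-like genes Klf9 rose and Klf16 fell with medium (4 unadjusted). Klf16 had 657, 535, 254 and 248 counts (fitted log2 -1.27, SE 0.376, edgeR adjusted p 0.0422), and its call held under 3 of 12 other settings and in none that left out a library. Klf13, the close relative of Klf9, was lower on PUCL@CNT1 over both media, with 924, 671, 1634 and 363 counts (fitted platform log2 -1.29, SE 0.317, adjusted p 0.0343). That call held under 2 of 11 other settings, and the values without a library ran from -1.85 to -0.78, none of them past the threshold.

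Calmodulin binders and lysine catabolism are the fields of Nrgn and of the enzyme activity of Crym. Of 11 calmodulin-related genes 2 rose with medium, against 1.8% of all genes tested (5 of the 11 had an unadjusted p under 0.05). The 2 were Nrgn and Marcks, a membrane protein that binds calmodulin. Marcks had 4575, 3435, 6665 and 5811 counts (fitted log2 0.62, SE 0.175, edgeR adjusted p 0.0294). Its call held under 5 of 12 other settings and in none that left out a library. Gap43, the growth cone protein that shares the calmodulin-binding motif of neurogranin, had log2 ratios of -1.44 and -0.35 (adjusted p 0.0987). Of 7 tested genes of lysine catabolism and related reductases other than Crym, 0 passed (1 unadjusted). Pipox, the pipecolate oxidase, had 2, 12, 56 and 150 counts (adjusted p 0.244).

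The genes with a pattern most like Crym over the 4 libraries were found by the Euclidean distance between centred log2 levels, among 6203 other genes that averaged at least 100 counts. The nearest was Actc1, the cardiac actin, with 27, 28, 294 and 186 counts (distance 0.32). Tinagl1, a secreted matrix protein, followed with 48, 51, 707 and 401 counts (0.43). Of the others among the 8 nearest that are described here, Gpatch1 stood at 0.75, Ephx1 at 1.00, Slc27a1 at 1.08, Pias3 at 1.11 and Stard13 at 1.19. Actc1, Tinagl1, Gpatch1 and Slc27a1 shared with Crym a lower value on PUCL@CNT1 than on PUCL in differentiation medium, with log2 ratios of -0.70, -0.86, -1.31 and -0.75. Stard13 was at -0.14, and Pias3 (0.12) and Ephx1 (0.15) were not lower. By the same measure Klf9 was at distance 1.89 (rank 145), Nrgn at 2.72 (rank 1144) and Thra at 2.94 (rank 1919). With 4 libraries that share the medium contrast used to pick Crym, this likeness is a description.

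**Figure D5:**
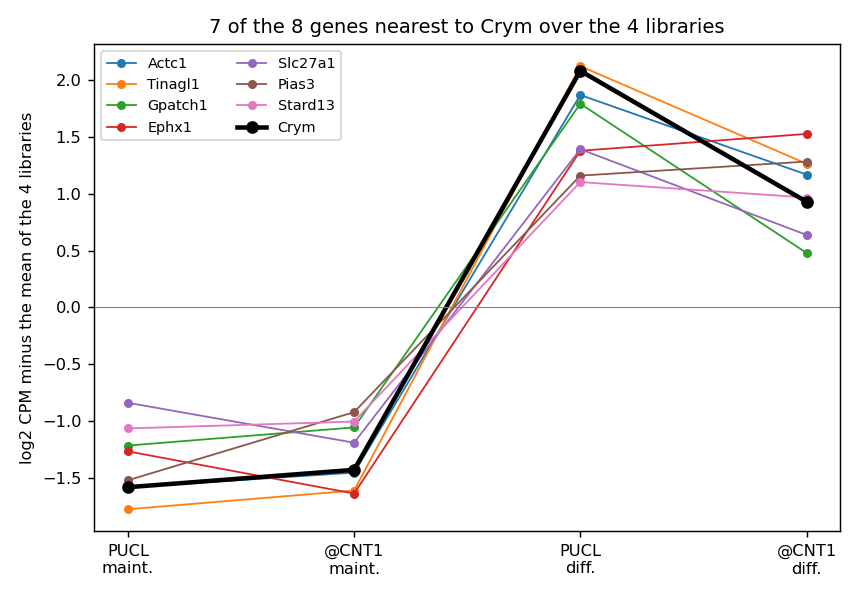
Log2 level minus the mean of the 4 libraries (y axis) in each library (x axis) for Crym (black) and 7 of the 8 genes nearest to it. Actc1 and Tinagl1 run closest to Crym, and Ephx1, Pias3 and Stard13 lack most of the gap between the platforms in differentiation medium.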

How the data were processed

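The files hold deposited counts, raw and whole, for each gene symbol in 4 libraries, 1 per group. Bowtie2, bedtools and the rn6 build are named, per the submitters' processing notes. Versions, annotation, strand setting and filters are not given in the sources used here. Counts of entries with the same symbol were added up (17048 entries, 16881 symbols), and a gene needed 10 counts in 1 library to be tested.

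Scaling used edgeR's TMM method (trimmed mean of M values, factors 1.01, 1.03, 0.982 and 0.97). Ratios of single pairs used a prior count of 0.5 and exact 95% binomial (Clopper-Pearson) intervals. Without molecular identifiers, intervals and floors cover counting error only. The quasi-likelihood test of edgeR 4.0.16 was run with 1 term for platform and 1 for medium. It has 1 residual degree of freedom and 87.2 prior degrees, so p-values rest mostly on the spread of other genes. The labels do not say that libraries came from separate cultures, so this spread may be technical. A printed SE is the fitted log2 difference over the root of its F value. Adjusted p-values are Benjamini-Hochberg over all 10516 genes at a threshold of 0.05. Alternatives were DESeq2 1.42.0, limma-voom 3.58.1, other scalings and filters, the other term left out, and each library left out, which also drops the other term. The fit was tested on simulated data.

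The members and lists were chosen with earlier results of these data known. Named genes were the 8 members, Nr1d1, list genes past the threshold in either term and the genes nearest to Crym. The rule let any list gene with 300 or more counts in a library be given by its values, and of these a few were picked. They and single marker genes were named after their values were seen. So were Rxrb, Itpr1, Cry1, Nr1d2, Pipox, Slc16a10, Slc7a8, Slco1c1 and genes named as having no counts. Some genes of the lists, markers and nearest genes are not reported here, and list counts and marker sums leave them out, including genes that passed the threshold, so these counts are not of whole lists.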

Additional observations from a re-analysis of the deposited data

Results flagged for a closer look

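Among 14 genes (the 8 members, Nr1d1 and the list genes that passed the edgeR threshold), 6 had effects of one factor with opposite signs at the 2 levels of the other. They were medium effects in Thra, Nr1d1 and Klf13 and platform effects in Crym, Dbp and Cpt1a, so the 6 pool 2 factors. Of 8278 genes with counts in all 4 libraries, 40.3% had opposite signs for medium on the 2 platforms. For platform in the 2 media 45.5% did, so opposite signs were common. Each share is for 1 factor, so the 6 of 14 cannot be set against either. Hr and Thrb, with counts of 0, are among the 14 but not among the 8278. With 1 library per group none of the opposite signs was tested, and the intervals cover counting error only. The platform log2 ratio of Crym was 0.15 in maintenance medium and -1.15 in differentiation medium, although the first value lies within counting error of 0. The change of -1.30 (95% interval -1.52 to -1.09) rests on the counts for which Crym was picked and is a description. The medium log2 ratio of Thra was -0.18 on PUCL and 0.81 on PUCL@CNT1, a change of 0.99 (0.73 to 1.26). The medium log2 ratio of Nr1d1, which lies opposite Thra, was 0.60 and -1.14, a change of -1.75 (-2.35 to -1.14). The platform log2 ratio of Dbp was 0.42 in maintenance and -0.32 in differentiation medium, a change of -0.74 (-1.46 to -0.03), and both of its ratios had intervals that included no change. The medium log2 ratio of Klf13 was 0.85 on PUCL and -0.98 on PUCL@CNT1, a change of -1.83 (-2.04 to -1.61). The platform log2 ratio of Cpt1a was 0.09 in maintenance and -0.25 in differentiation medium, a change of -0.35 (-0.55 to -0.15). The first of these ratios had an interval that included no change (-0.07 to 0.26).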

How the results depend on the processing

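The number of genes past the edgeR threshold for medium was 296, and 28 among genes that averaged at least 300 counts, 170 in DESeq2 and 25 to 263 with a library left out (25 without the PUCL@CNT1 and 35 without the PUCL maintenance library). For platform it was 48, against 18 with DESeq2 size factors, 27 with total counts, 25 with no filter, 38 in DESeq2, 87 in limma-voom and 0 in edgeR among genes that averaged at least 300 counts (343 at an unadjusted p under 0.05). With a library left out it ran from 0 to 27 (0 without the PUCL differentiation library, 356 unadjusted, and 1 without the PUCL maintenance library). No paired analysis was possible because each group is 1 library and the numbers in the labels mark the platform. Without the other factor as a replicate block the counts were 176 for medium and 0 for platform (388 unadjusted). With a size rule of 1.5-fold and a near bound past 1, genes called rose from 3287 to 5146 (medium on PUCL), 3252 to 5263 (medium on PUCL@CNT1), 2741 to 4437 (platform, maintenance), 3237 to 5179 (platform, differentiation) and 3101 to 5040 (change of the platform ratio). Signs turned with a library left out in the fitted medium difference of Thra (-0.29 to 0.94) and Nrgn (-0.09 to 1.21). They also turned in the fitted platform difference of Crym (-2.61 to 1.78), Klf9 (-1.16 to 0.51), Hr (-8.69 to 0.33), Thrb (-6.19 to 6.65), Dio3 (-0.65 to 0.22) and Dbp (-0.61 to 0.79). The values for Hr and Thrb depend on the prior count. These fits drop the other term and leave 1 library in an arm, so they mix in the other factor: the Crym platform values carry its medium difference and say nothing of the platforms. The Dbp platform difference was also -0.12 in limma-voom and -0.08 without the block. By Pearson correlation 0 of the 8 genes nearest to Crym were shared with those by distance. The cause of these shifts was not tested. Low counts limit Hr, Thrb, Dio3 and Dbp.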
